A study of Mus musculus with 6 samples.

Results

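Srrm1, Srrm2, Son, Pnn, Sfpq, Nono, Pspc1, Neat1 and Malat1 are the protein and RNA scaffolds of nuclear speckles and paraspeckles. They were chosen by gene symbol, as scaffolds of the nuclear bodies in or near which the splicing factor SMNDC1 is found, and all 9 were present among the 55487 genes counted. Nuclear speckles are membrane-less bodies that store and concentrate splicing factors, and their core depends on the large serine- and arginine-rich proteins SON and SRRM2. Paraspeckles lie beside them and are built on the long isoform of the Neat1 RNA, which is coated by the related RNA-binding proteins SFPQ, NONO and PSPC1. Malat1, another long non-coding RNA, is encoded next to Neat1 and gathers at the rim of speckles.

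RNA was sequenced from αTC1, a glucagonoma line from mouse whose cells are of the pancreatic α type and make glucagon. A group of 3 libraries came from cells treated with G786-1089, which the series describes as an SMNDC1 inhibitor, and a group of 3 came from cells treated with the solvent DMSO. The deposited column names mark the libraries of both groups as WT, for wild type. The labels give neither dose nor time. Of its cell culture work in general, the study states that each replicate divided 1 batch of cells at random between the treatments and was handled as a set. Whether the batches of these libraries were independent cultures is not stated, so p-values measure the spread between libraries, which may be technical. Libraries are named A, B and C after the letters of the deposited columns, and no source ties these letters to the replicate numbers.

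Totals were 59070705 to 94747943 counts per library, and every G786-1089 library was deeper than every DMSO library. Values are given as CPM, in which TMM scaling brings counts to a common library size, and between 17425 and 18028 genes had a count in each library. Glucagon (Gcg) was counted at 20240 to 22880 CPM with DMSO and at 2832 to 3603 CPM with G786-1089. Of 25 markers of other cells, 10 were at 0 throughout, among them Ins1, Sst, Ppy and Prss1, and the summed level of the 25, scaled by library totals, was 61.7 to 90.2 CPM with G786-1089 and 40.8 to 48.6 CPM with DMSO. Within that sum, the acinar marker Cela1 was at 30.8, 28.8 and 48.6 CPM with G786-1089 and at 8.44, 20.1 and 12.9 CPM with DMSO. The other acinar markers, Prss1, Cpa1 and Ptf1a, were at 0. Whether any other cells were present was not tested. Smndc1 itself was at 4.14, 1.22 and 6.03 CPM with G786-1089 and at 2.78, 1.71 and 1.88 CPM with DMSO, a log2 difference of 0.84 ± 0.67 (SE, n = 3 per group, edgeR adjusted p = 0.481).

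How the RNA was captured matters for the non-coding scaffolds. Smart-seq2 primes cDNA on stretches of A, as a rule the poly(A) tail. Malat1 and the long isoform of Neat1 lack such a tail, and both end in an A-rich tract written in the genome that folds back on U-rich stretches into a triple helix. The short isoform of Neat1 is polyadenylated in the ordinary way. The stretches below are 90 bases each, on the minus strand of GRCm38 chromosome 19, read 5′ to 3′ from the annotated transcripts: Malat1 at chr19:5795982-5796071, long Neat1 at chr19:5824708-5824797 and short Neat1 at chr19:5842307-5842396. Capitals mark the U-rich stretches (written with T) and the A-rich tract in the first pair, and the polyadenylation signal in the short form.
Malat1: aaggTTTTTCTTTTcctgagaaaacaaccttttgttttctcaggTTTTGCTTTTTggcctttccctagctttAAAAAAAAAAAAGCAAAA
Neat1, long form: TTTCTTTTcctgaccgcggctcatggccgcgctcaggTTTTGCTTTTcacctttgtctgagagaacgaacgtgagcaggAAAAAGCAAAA
Neat1, short form: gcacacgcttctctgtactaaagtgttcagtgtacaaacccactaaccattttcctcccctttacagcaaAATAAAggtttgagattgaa
The last 11 bases of the Malat1 and long Neat1 stretches were identical, and their longest shared run was 16 bases, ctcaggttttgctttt, around a U-rich stretch. The longest run of A in the stretches shown was 12 bases in Malat1, 5 in long Neat1 and 4 in short Neat1. The annotated Malat1 transcript continues for 292 bases past the tract shown, so priming beyond it would also be counted. The polyadenylation signal of the short Neat1 form, AATAAA, begins 20 bases before its annotated end. Counts were summed per gene, so the isoforms of Neat1 were not separated, although 1 annotated transcript has 20771 bases and another 3004.

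With G786-1089, 4 of the 9 scaffold genes rose (Neat1, Malat1, Srrm1 and Srrm2) and 1 fell (Nono), at an adjusted p under 0.05 by edgeR. Neat1 changed most, to 2.74 times its DMSO level. Son, Pnn, Sfpq and Pspc1 did not pass. Of the 15082 genes tested, 14.8% passed in either direction, 6.98% as higher and 7.8% as lower. As these are bulk RNA samples, a change in RNA per cell and one in the share of cells with that RNA cannot be told apart. The 2 groups of libraries did not overlap for 8 of the 9 scaffold genes, all but Pnn, against 36.7% of all tested genes. The shares over all tested genes, here and beside the lists below, are not matched for level. The mean level of each scaffold gene was above that of 57.5% (Sfpq) to 99.3% (Malat1) of tested genes. Neat1 was the 1 scaffold gene past the study's own filter, an adjusted p of at most 0.1 and a change of at least 2-fold, which 10.4% of tested genes passed. The median log2 fold change was 0.39 over the 9 and 0.041 over all tested genes.

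**Figure D1:**
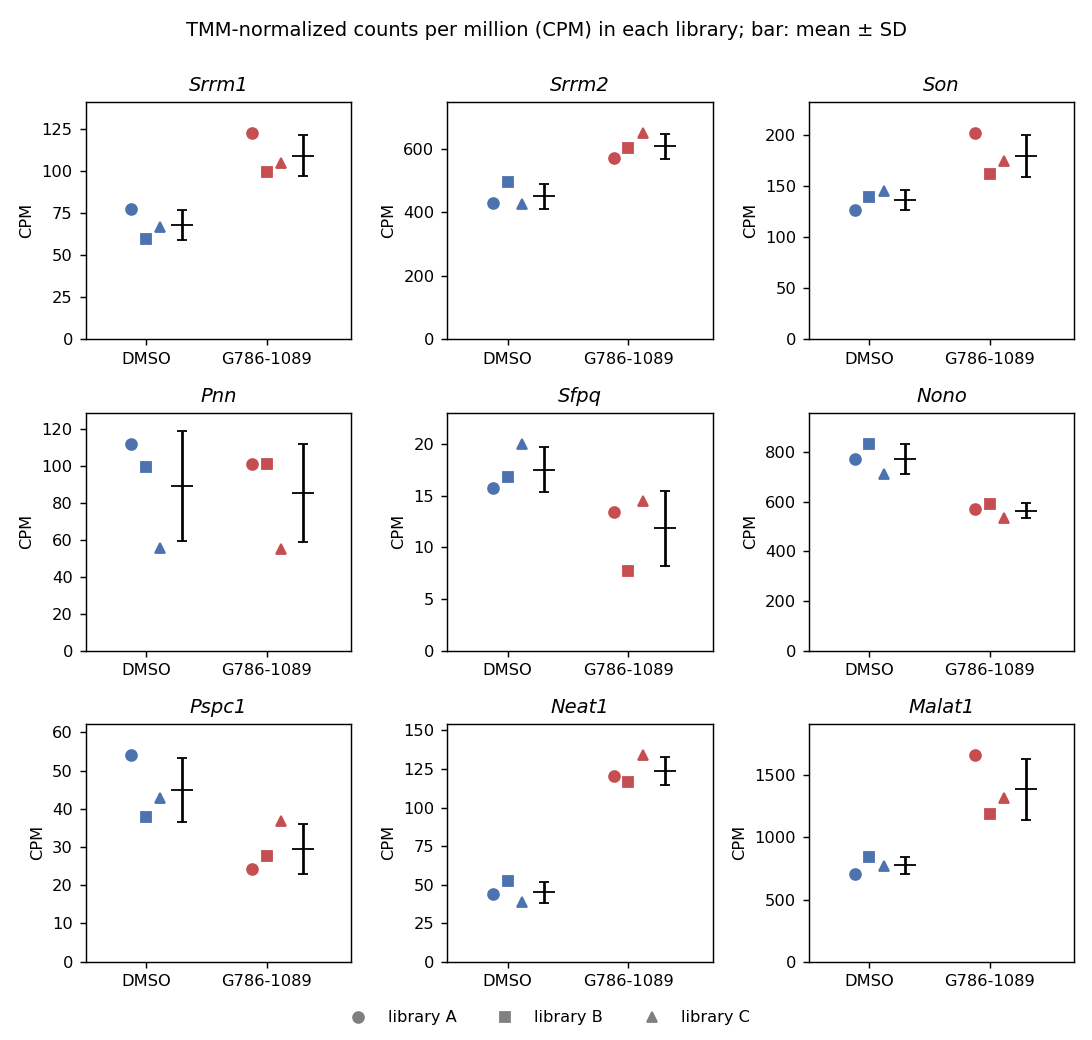
CPM of each scaffold gene (y axis, from 0) in the DMSO libraries (blue) and G786-1089 libraries (red), with circles, squares and triangles for libraries A, B and C and a bar for the mean ± SD of 3. Every G786-1089 library lies above every DMSO library for Srrm1, Srrm2, Son, Neat1 and Malat1 and below for Sfpq, Nono and Pspc1, while both C libraries are low for Pnn.

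Neat1 (ENSMUSG00000092274, chr19:5824708-5845478, minus strand), the RNA on which paraspeckles assemble, was measured at 120.5, 116.3 and 134.0 CPM in G786-1089 libraries A, B and C. The DMSO libraries held 43.9, 52.2 and 39.0 CPM. The lowest G786-1089 library was more than double the highest DMSO library, and the libraries of a group lay close together. The log2 fold change was 1.46 ± 0.15 (SE, n = 3 per group, edgeR adjusted p = 0.00165), and 9.55% of tested genes had a higher one. It passed without each library in turn, with log2 fold changes of 1.36 to 1.57.

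Malat1 (ENSMUSG00000092341, chr19:5795690-5802672, minus strand), the neighbouring speckle-associated RNA, was measured at 1661, 1186 and 1316 CPM with G786-1089. With DMSO it was at 707, 846 and 770 CPM. Library A stood above the other G786-1089 libraries, and the groups did not overlap. Malat1 rose 1.79-fold, a log2 fold change of 0.84 ± 0.13 (SE, n = 3 per group, edgeR adjusted p = 0.00894). Without G786-1089 library A the log2 fold change was 0.69 and still passed (edgeR adjusted p = 0.0138). Malat1 made up 0.125% to 0.177% of all counts with G786-1089 and 0.0662% to 0.0791% with DMSO, the largest share of the 9 scaffold genes in every G786-1089 library. Exons of Gm37376 cover 6.49% of Malat1 on the opposite strand, and those of 3 small RNA genes lie within Neat1. All had a count of 0. Counting in Union mode without strand drops reads that overlap more than 1 gene. These counts therefore cannot show whether the overlapping genes were transcribed.

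Both RNAs rose, with the larger estimate for Neat1, but the exact test on 3 libraries against 3 cannot decide whether their responses differ. The log2 ratio of Neat1 to Malat1 within a library was taken on deposited FPKM (counts scaled per kilobase of exon and between libraries). This ratio was -5.36, -4.92 and -4.87 with G786-1089 and -5.58, -5.59 and -5.88 with DMSO. All G786-1089 libraries had the higher ratio, by a mean of 0.63 on the log2 scale. The exact two-sided permutation test gave p = 0.1, the smallest p that 3 libraries against 3 can give (adjusted p = 0.4 over 4 ratios, exact test). The difference ran from 0.54 to 0.79 as each library was left out, and was 0.29 on log2(FPKM + 1), where the low level of Neat1 weighs less (exact p = 0.3).

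Among the speckle core proteins, Srrm1 and Srrm2 rose. Srrm1 (ENSMUSG00000028809, chr4:135320484-135353321, minus strand) encodes a splicing coactivator rich in serine and arginine. It was measured at 122.6, 99.4 and 104.6 CPM with G786-1089 and at 77.1, 59.8 and 66.8 CPM with DMSO, without overlap. Its log2 fold change was 0.68 ± 0.15 (SE, n = 3 per group, edgeR adjusted p = 0.0251), a 1.60-fold rise. The call was lost without G786-1089 library A (edgeR adjusted p = 0.0721) or C (0.0619) and without DMSO library B (0.0796) or C (0.0855). The log2 fold change ran from 0.59 to 0.78 as each library was left out.

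Srrm2 (ENSMUSG00000039218, chr17:23790532-23824741, plus strand), whose product forms the speckle core with SON, was measured at 570.5, 601.3 and 650.3 CPM with G786-1089. DMSO libraries held 430.6, 496.2 and 425.8 CPM. DMSO library B came closest to the G786-1089 libraries, and the groups did not overlap. The rise was 1.35-fold, a log2 fold change of 0.43 ± 0.09 (SE, n = 3 per group, edgeR adjusted p = 0.0222). It was lost without G786-1089 library B (edgeR adjusted p = 0.0595) or C (0.0682) and without DMSO library A (0.0888) or C (0.0867). With the column letter as a block, the edgeR adjusted p was 0.0628.

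Son (ENSMUSG00000022961, chr16:91647506-91679221, plus strand), the other core protein, was measured at 202.6, 161.9 and 174.9 CPM with G786-1089 and at 126.5, 139.3 and 145.8 CPM with DMSO. The G786-1089 libraries were all higher, but spread more widely. The log2 difference of 0.39 ± 0.12 did not pass (SE, n = 3 per group, edgeR adjusted p = 0.0731). The log2 ratio of Srrm2 to Son was 2.09 with G786-1089 and 2.04 with DMSO (exact two-sided permutation p = 0.6). Exons of Donson on the opposite strand cover 0.69% of the exons of Son, and strand was not kept. Donson was at 41.5 to 48.5 CPM with G786-1089 and 25.0 to 34.6 CPM with DMSO.

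Pnn (ENSMUSG00000020994, chr12:59066884-59073998, plus strand) encodes pinin, a speckle protein that works with the exon junction complex and is also known at desmosomes. It was measured at 100.8, 100.7 and 54.7 CPM with G786-1089 and at 111.8, 99.5 and 55.3 CPM with DMSO. Library C of each group stood at about the same low level, and libraries A and B at about the same high one. The groups overlapped, with a log2 difference of -0.06 ± 0.33 (SE, n = 3 per group, edgeR adjusted p = 0.935). This SE is over 2 times that of Srrm1, and the sign turned to 0.18 without G786-1089 library C, to 0.14 without DMSO A and to 0.03 without DMSO B. With the column letter as a block, the log2 difference was -0.05 ± 0.12 (SE, n = 3 per group, edgeR adjusted p = 0.84).

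Of the paraspeckle core proteins, Nono passed the test. Nono (ENSMUSG00000031311, chrX:101429318-101448591, plus strand) encodes an RNA-binding protein of the same family as SFPQ and PSPC1, whose members work as dimers. It was measured at 570.1, 590.4 and 532.5 CPM with G786-1089 and at 772.7, 832.9 and 711.6 CPM with DMSO. Every G786-1089 library was below every DMSO library. The log2 fold change was -0.45 ± 0.08 (SE, n = 3 per group, edgeR adjusted p = 0.0126), a level of 0.731 times that with DMSO. The adjusted p was 0.0504 by edgeR without DMSO library A.

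Pspc1 (ENSMUSG00000021938, chr14:56720710-56778316, minus strand), a partner of NONO in paraspeckles, was measured at 24.3, 27.6 and 36.9 CPM with G786-1089 and at 54.1, 37.8 and 42.8 CPM with DMSO. G786-1089 library C came within 1 CPM of DMSO library B. The log2 difference was -0.60 ± 0.23 (SE, n = 3 per group) and did not pass by edgeR (adjusted p = 0.138). Sfpq (ENSMUSG00000028820, chr4:127021324-127037013, plus strand), whose product is needed for paraspeckles to form, was measured at 13.4, 7.67 and 14.5 CPM with G786-1089 and at 15.8, 16.8 and 20.0 CPM with DMSO. G786-1089 library B was the lowest of the 6. The log2 difference of -0.57 ± 0.31 did not pass (SE, n = 3 per group, edgeR adjusted p = 0.294). Exons of Gm12940 cover 4.55% of Sfpq on the same strand and had 0 to 13 counts in a library.

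Pspc1 and Sfpq thus lay below DMSO by log2 values like that of Nono, with SEs about 3 and 4 times as large. Within libraries, the log2 ratio of Sfpq to Nono was -6.06 ± 0.57 with G786-1089 and -5.90 ± 0.27 with DMSO (SD, n = 3 each, exact two-sided permutation p = 0.8). The ratio of Pspc1 to Nono was -5.36 ± 0.37 and -5.20 ± 0.32 (SD, n = 3 each, exact two-sided permutation p = 0.7). No difference between these genes in their response could be told from the spread. Both ratios had an adjusted p of 0.8 over the 4 ratios tested, again by the exact test.

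Levels can be compared between genes per length, as FPKM. With DMSO, Nono was highest at 277 ± 21.1 FPKM (SD, n = 3), followed by Malat1 at 102 ± 9.03 and Srrm2 at 46.7 ± 3.98. Pnn at 23.4 ± 7.80 and Srrm1 at 15.2 ± 1.96 came next and were the 1 pair of neighbours whose libraries overlapped. Son at 11.3 ± 0.825, Pspc1 at 7.59 ± 1.41, Sfpq at 4.65 ± 0.597 and Neat1 at 1.99 ± 0.292 followed. The proteins that pair in paraspeckles were thus far apart in RNA level.

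With G786-1089, Nono fell to 202 ± 11.5 FPKM and Malat1 rose to 182 ± 31.5 (SD, n = 3), and their libraries overlapped. Neat1 moved from the last place to the seventh, at 5.45 ± 0.385, where its libraries overlapped those of Pspc1 at 4.99 ± 1.09 and lay above those of Sfpq at 3.13 ± 0.953. Srrm1 at 24.3 ± 2.63 and Pnn at 22.5 ± 7.04 overlapped, as did Pnn and Son at 14.8 ± 1.65. The FPKM of Neat1 is divided by the length of all its exons, most of which belong to the long form, so it would be larger if the counts came from the short form.

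**Figure D2:**
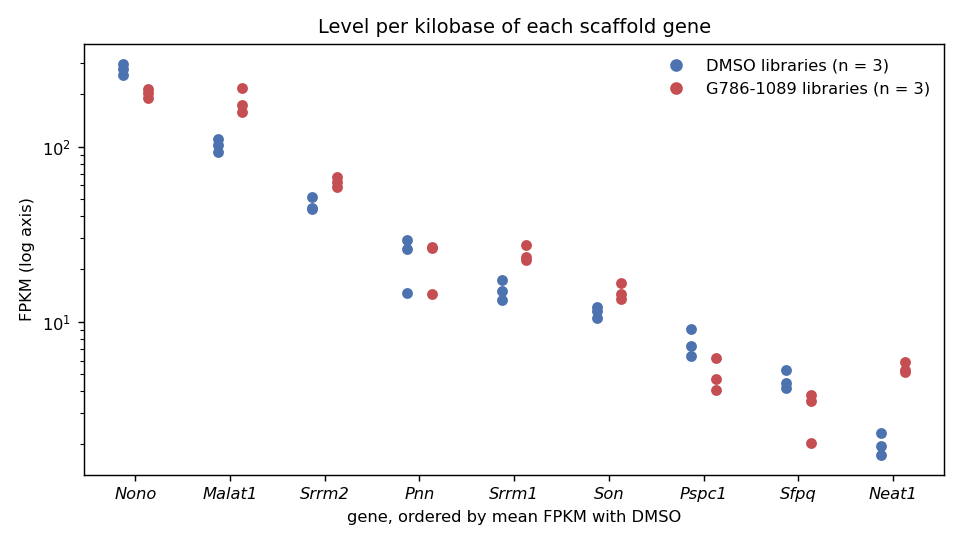
Deposited FPKM (log y axis) of each scaffold gene in the 3 DMSO libraries (blue) and 3 G786-1089 libraries (red), ordered by the mean with DMSO. Levels run from 277 FPKM for Nono to 1.99 for Neat1 with DMSO, and Neat1 stands above Sfpq with G786-1089.

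Fold changes in these libraries followed gene length, and the scaffold genes that rose are long. Tested genes were divided by exon length into 10 groups of about equal size. The median log2 fold change was -0.28 in the group of shortest genes and 0.33 in that of the longest, of 6650 bases or more. Neat1, Malat1, Srrm2 and Son belong to the longest group and Srrm1 to the eighth, while Nono belongs to the fifth. In its own length group, 13.4% of genes had a higher log2 fold change than Neat1. The share was 28.2% for Malat1 and 29.8% for Srrm1. With offsets that remove the trend, Neat1 kept a log2 fold change of 1.05 ± 0.14 (SE, n = 3 per group, edgeR adjusted p = 0.00507) and Malat1 one of 0.54 ± 0.13 (edgeR adjusted p = 0.04). Nono stood at -0.51 ± 0.08 (edgeR adjusted p = 0.00827). The offsets take Neat1 at 20771 bases, the length of its long form. The group of 2679 to 3295 bases, which would hold its short form of 3004, had a median of 0.10.

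Srrm1 and Srrm2 lost their calls under these offsets. Srrm1 was at 0.49 ± 0.14 (SE, n = 3 per group, edgeR adjusted p = 0.0716), Srrm2 at 0.11 ± 0.10 (adjusted p = 0.556) and Son at 0.05 ± 0.11 (adjusted p = 0.858). Srrm2 and Son thus moved about as much as other genes of their length. Pspc1 went the other way, to -0.87 ± 0.23 (edgeR adjusted p = 0.0571), and Sfpq to -0.70 ± 0.31 (adjusted p = 0.211). The origin of the length trend was not tested.

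**Figure D3:**
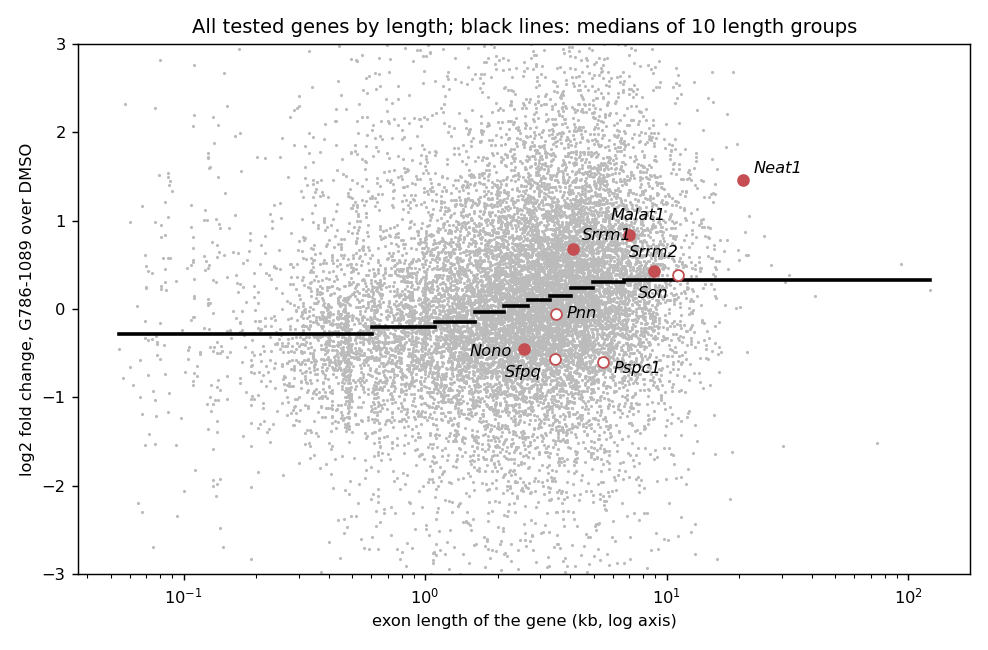
Log2 fold change of G786-1089 over DMSO (y axis) against exon length in kb (log x axis) for all 15082 tested genes (grey, 487 of them outside the axis), with the median of each of 10 length groups as a black line. Scaffold genes are in red, filled where the edgeR adjusted p was under 0.05. Neat1 at 1.46 lies above the line of its group at 0.33, with 13.4% of that group higher still, whereas Srrm2 and Son lie close to the line.

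**Figure D4:**
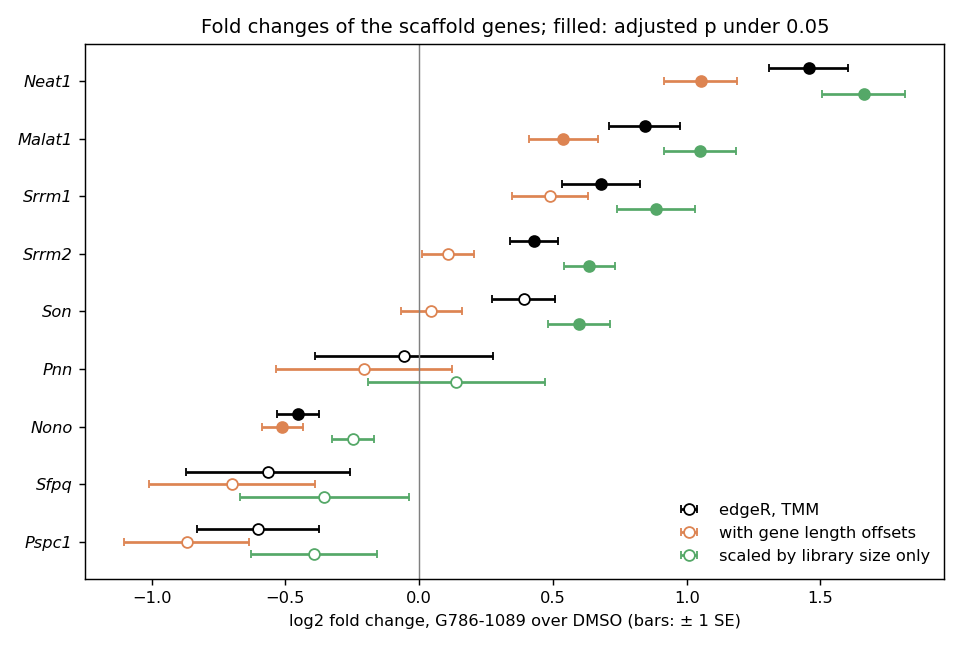
Log2 fold change ± 1 SE (x axis) of each scaffold gene by edgeR with TMM scaling (black), with gene length offsets (orange) and scaled by library size only (green), filled where the adjusted p was under 0.05. Neat1 and Malat1 stay filled throughout, Srrm1 and Srrm2 are open with length offsets, and Nono is open with library size only.

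Scaling also mattered. With library size alone in place of TMM, the median log2 fold change of all tested genes was 0.246, and every scaffold gene moved up by about 0.2. Son then passed at 0.60 (edgeR adjusted p = 0.0172), Nono was lost at -0.25 (edgeR adjusted p = 0.0811), and Pnn turned to 0.14. Relative to that shift, Neat1 at 1.66, Malat1 at 1.05, Srrm1 at 0.89 and Srrm2 at 0.64 were still higher.

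Other proteins of speckles passed in both directions. Of 42 listed, 40 were tested, and 8 rose and 3 fell, 27.5% against 14.8% of all tested genes, with a median log2 fold change of 0.168 beside 0.041 for all. Rbm39, a splicing factor related to U2AF, was measured at 1060, 956 and 984 CPM with G786-1089 and at 428, 430 and 458 CPM with DMSO, a log2 fold change of 1.19 ± 0.07 (SE, n = 3 per group, edgeR adjusted p = 0.000236). Cactin, a spliceosome component, rose by 1.42 ± 0.22, the cyclin Ccnl2 by 1.34 ± 0.22 and Thrap3, a transcription and splicing cofactor, by 0.91 ± 0.17 on the same scale.

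Among those that fell, Erh, a small conserved protein of RNA metabolism, went from 573, 674 and 573 CPM with DMSO to 303, 288 and 246 CPM, a log2 fold change of -1.12 ± 0.11 (SE, n = 3 per group, edgeR adjusted p = 0.00143). Eif4a3 at -0.39 ± 0.09 and Rbm8a at -0.46 ± 0.12, both of the exon junction complex, fell less. With gene length offsets the list's median was -0.107, and 4 rose and 2 fell. With library size only 12 rose and 1 fell, and with the column letter as a block 4 rose and 2 fell. Between 5 and 6 passed without G786-1089 library A or without any 1 of the DMSO libraries.

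Other paraspeckle proteins passed in both directions by this fit. Of 30 tested, 4 rose and 5 fell, 30% against 14.8%, with a median log2 fold change of -0.12. Hnrnpk, an abundant protein that binds nascent RNA, went from 671, 644 and 664 CPM with DMSO to 402, 382 and 361 CPM, a log2 fold change of -0.79 ± 0.07 (SE, n = 3 per group, edgeR adjusted p = 0.000917). The groups were tight and far apart. Hnrnpa1 and Hnrnph1, also RNA-binding proteins of the hnRNP group, stood at -1.13 ± 0.11 and -1.43 ± 0.19, and Wtap, a subunit of the RNA methylation complex, at -0.94 ± 0.15. 

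Those that rose were the matrix-binding proteins Safb, at 0.59 ± 0.11, and Safb2, at 0.63 ± 0.15, and the cleavage factor subunits Cpsf6, at 0.78 ± 0.16, and Cpsf7, at 1.69 ± 0.41 (log2 fold change ± SE, n = 3 per group). Cpsf7 was low, at 18.8, 10.3 and 8.7 CPM with G786-1089 and 3.06, 4.51 and 4.12 CPM with DMSO. With gene length offsets the median of the list was -0.293, and 0 rose and 6 fell. The edgeR adjusted p was then 0.0517 for Safb, 0.0802 for Safb2, 0.113 for Cpsf6 and 0.0511 for Cpsf7. With library size only 6 rose and 5 fell. With the column letter as a block, or without DMSO library B, 0 rose and 4 fell, and without DMSO library A 1 rose and 4 fell.

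Genes that process or regulate Neat1 were taken as a further list, of which 15 of 17 were tested. Here 2 rose and 2 fell, 26.7% against 14.8%, with a median log2 fold change of 0.184. Cpsf6 and Hnrnpk are called both here and among the paraspeckle proteins, so the shares of these lists are not independent. Atf2, a transcription factor linked to Neat1 transcription, was measured at 67.5, 52.6 and 44.8 CPM with G786-1089 and at 9.72, 4.43 and 7.67 CPM with DMSO, a log2 fold change of 2.92 ± 0.34 (SE, n = 3 per group, edgeR adjusted p = 0.00289). Every G786-1089 library was over 4 times the highest DMSO library. Cpsf6, which promotes the polyadenylated short form, rose, and Hnrnpk, which opposes it in favour of the long form, fell, with the values given above. Nudt21 and Tardbp of this list, named after their values were seen, did not pass. Their log2 differences were -0.33 ± 0.244 and 0.375 ± 0.246 (SE, n = 3 per group, edgeR adjusted p = 0.443 and 0.384). With gene length offsets Hnrnpk still passed (log2 fold change -0.98, edgeR adjusted p = 0.000389) and Cpsf6 did not (0.46, adjusted p = 0.113). Hnrnpm fell from 201 to 217 CPM to 124 CPM in all G786-1089 libraries, a log2 fold change of -0.77 ± 0.08. With library size only 5 of the list rose and 2 fell. The 2 Neat1 forms themselves were not separated.

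**Figure D5:**
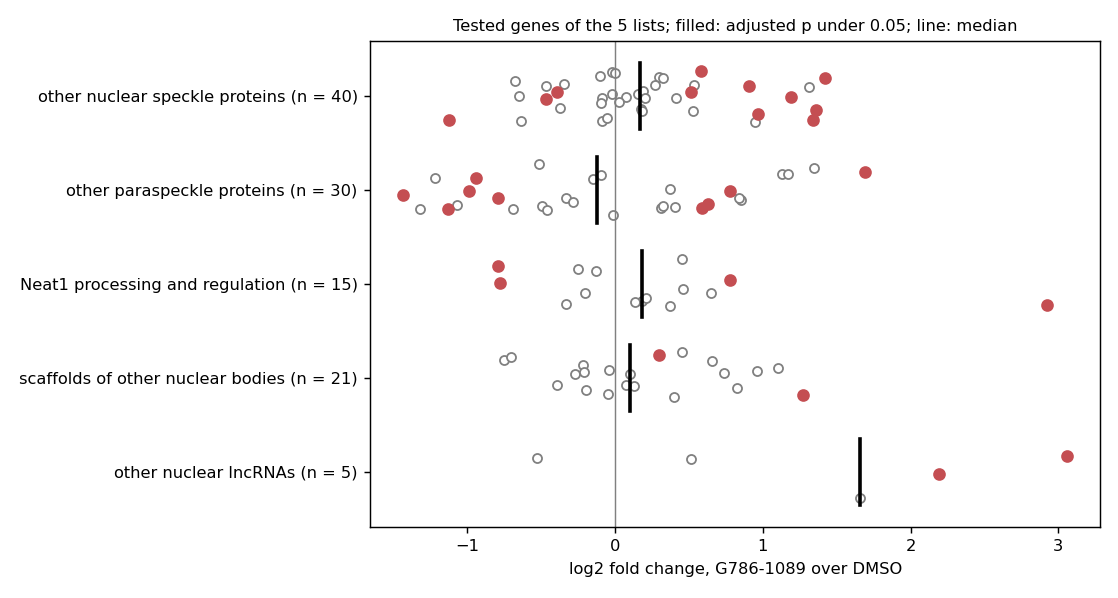
Log2 fold change of G786-1089 over DMSO (x axis) for the tested genes of 5 lists (rows), filled red where the edgeR adjusted p was under 0.05, with a black line at the median of the list. Other speckle proteins have a median of 0.168 and other paraspeckle proteins one of -0.12, and both lists hold filled points on either side of 0.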

How the data were processed

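The authors deposited counts per gene, made by aligning reads with STAR to GRCm38 and counting alignments on basic Ensembl transcripts in Union mode, irrespective of strand, and summed per gene without normalization. FPKM values of the same genes were also deposited, scaled per kilobase of exon and between libraries. The submitters' processing notes name STAR 2.7.9a, Picard 2.19.2, DESeq2 1.34.0 and R 4.1.3. G786-1089 was taken to be the compound for which the study reports sequencing.

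The scaffold genes and the 5 lists were chosen with earlier results of these data known. Named list genes are up to 4 called per direction with the smallest p. Counts were tested on the whole table with the quasi-likelihood test of edgeR 4.0.16 in R 4.3.3, after filterByExpr (minimum count 10, minimum total 15) and TMM, with p-values adjusted over the whole table by Benjamini-Hochberg. The SE was obtained from the fold change and its F statistic, as |log2 fold change| / sqrt(F). Ratios of FPKM were compared by exact permutation. Alternatives were DESeq2 1.42.0, other scalings and filters, lowess offsets for gene length (span 0.3), limma-trend 3.58.1 on log2 FPKM, each library left out, and a block by column letter. GC offsets and thinned counts were added after seeing the data. Of counts from 1 to 10, 78.1% were even, so counts are not all independent fragments. The fits were checked on simulated data with few changed genes. Of 23437 genes tested there by DESeq2, 106 were changed by a log2 size of 1 and 94 by 2. Few edgeR calls were wrong there, but most changed genes were missed, so a gene that did not pass may have changed. Most DESeq2 calls were of unchanged genes. That share depends on how many genes change, so it does not carry over to these data. Gene positions, exon overlaps and the RNA ends shown come from GENCODE vM21 (GRCm38), which held 55141 of the 55487 gene identifiers.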

Additional observations from a re-analysis of the deposited data

How the results depend on the processing

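Of the 9 scaffold genes, 5 were called. Neat1 passed under every alternative run, and Malat1 under all but the replicate block with length offsets. The number called was 3 with gene length offsets, 2 with the replicate block by column letter and length offsets, and 3 to 4 with a library left out. It was 7 with DESeq2, which added Son and Pspc1 (DESeq2 adjusted p = 0.00714 and 0.0437). On simulated data most DESeq2 calls were of unchanged genes. Few genes were changed there, so the share of wrong calls here is not known. Library size alone gave 5, of which 4 were shared. Past the study's filter there were 2 with library size only and otherwise 1. Pnn reversed to 0.14 with library size only, and to 0.18, 0.14 and 0.03 without G786-1089 C, DMSO A and DMSO B, over a range of -0.31 to 0.18 with a library left out. The causes were not tested. The log2 ratio of Sfpq to Nono ranged from -0.37 to 0.16 with a library left out, that of Srrm2 to Son from -0.040 to 0.18.

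No source ties the letters to replicates. Deviations of same-lettered libraries correlated at 0.015, 0.003 and 0.025 across genes, and those of different-lettered libraries at -0.027 to 0.012. The replicate block by letter gave 4 called scaffold genes, losing Srrm2 (edgeR adjusted p = 0.0628) and changing no other of their calls.

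For the other speckle proteins, 11 were called, 7 with a filter of 1 count in any library, 6 with length offsets, 7 with limma-trend without a minimum, 6 with the replicate block, 3 with block and length, and 5 to 8 with a library left out. For paraspeckle proteins, 9 became 4 with the block, 5 with block and length, and 4 to 8 with a library left out. The 2 called nuclear long non-coding RNAs became 1 with the filter of 1 count or limma-trend without a minimum, 0 with length offsets, with the block or with both, and 0 to 1 with a library left out. The 2 called scaffolds of other bodies became 7 with DESeq2, 4 with limma-trend at a minimum of 1 and a pseudocount of 1, 0 with the block alone or with length offsets, 1 with GC offsets, 1 higher and 1 lower with length offsets, and 0 to 2 with a library left out. The 4 called genes around Neat1 became 7 with DESeq2, library size only and limma-trend at a minimum of 1 with either pseudocount.

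Depth limited few values, as scaffold genes had at least 768 counts per library, but 3 libraries per group limit the precision.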

Other observations

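Few other long non-coding RNAs kept in the nucleus could be measured. Of 12 listed, 5 were tested, and 2 rose with G786-1089, 40% against 14.8% of all tested genes. Pvt1, which lies beside Myc, was measured at 79.2, 87.7 and 59.9 CPM with G786-1089 and at 6.35, 14.6 and 28.6 CPM with DMSO. Its groups did not overlap, and the DMSO libraries spread widely. The log2 fold change was 2.19 ± 0.52 (SE, n = 3 per group, edgeR adjusted p = 0.0347). Firre, an X-linked RNA that contacts several chromosomes, was measured at 7.67, 13.6 and 3.23 CPM with G786-1089 and at 0.90, 0.34 and 1.69 CPM with DMSO, a log2 fold change of 3.06 ± 0.80 (edgeR adjusted p = 0.0487). With gene length offsets neither passed (edgeR adjusted p = 0.0531 and 0.0649), at most 1 of them passed with any library left out, and 0 with the column letter as a block.

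Scaffolds of other nuclear bodies mostly did not pass. Of 22 listed, 21 were tested, and 2 rose, 9.52% against 14.8%, with a median log2 fold change of 0.10. Coil, the scaffold of Cajal bodies, was measured at 35.1, 38.5 and 41.9 CPM with G786-1089 and at 22.9, 10.9 and 14.0 CPM with DMSO, a log2 fold change of 1.27 ± 0.30 (SE, n = 3 per group, edgeR adjusted p = 0.0344). With gene length offsets Coil did not pass (edgeR adjusted p = 0.0516), and Ncl, which encodes nucleolin and is named after its value was seen, passed as lower (log2 fold change -0.53, adjusted p = 0.0212). Npm1, the main protein of the outer nucleolus, was at 763, 745 and 713 CPM against 580, 607 and 622 CPM, a log2 fold change of 0.30 ± 0.06 (edgeR adjusted p = 0.0213). The number that passed was 0 without G786-1089 library B, DMSO library B or DMSO library C, 1 without G786-1089 library C or DMSO library A, and 0 with the column letter as a block.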
